A study of Mus musculus with 16 samples.

Results

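A set of 9 genes, most of them metabolic enzymes, is described here across the mammary glands of tumour-prone female mice housed alone or in groups. They are Ces1f, Acaa1b, Amy1, Ptger3, B3galt2, Sycp3, Akr1c14, Inmt and Prdm8. They were chosen by their measured 20 minus 15 week differences, as genes whose values lay far lower at 20 weeks of age, and they are not milk, lipid synthesis or immune genes. The members make up 9 of 18193 measured genes, and 12 of 45101 probe sets (groups of short oligonucleotides that report on a transcript) carry the symbol of a member alone. Since the age difference chose these genes, the age differences below are a description without a test.

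Total RNA of the whole thoracic mammary gland was measured on 16 Affymetrix mouse arrays, 4 for each of 4 groups. The groups were isolated mice at 20 weeks, grouped mice at 20 weeks, isolated mice at 15 weeks and grouped mice at 15 weeks. All mice, the grouped ones included, were FVB/N females homozygous for the SV40 large T antigen, a viral oncoprotein, under the C3(1) fragment of the rat prostatic steroid binding protein promoter, which leads to mammary tumours, so that no mouse without the transgene was compared. They were weaned at 3 weeks, split into cohorts balanced on a behaviour test, then housed singly or together, and killed in estrus 6 h into the dark phase. Replicate numbers are given, but no label says that the 4 arrays of a group are 4 mice, so the spread behind each p may be technical.

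The arrays of each age had a distribution of values of their own, with array medians of 8.31 to 8.34 at 20 weeks and 8.09 to 8.11 at 15 weeks on the log2 scale, so age and a possible difference in processing cannot be told apart. Levels and age differences are therefore given after quantile normalization of all 16 arrays, which gives each array the same set of values. Before it the median gene lay 0.24 higher at 20 weeks in isolated mice and 0.23 higher in grouped mice, and after it -0.01 and 0. The difference between the 3' and 5' probe sets of the Gapdh control, a sign of RNA quality, averaged -0.02 ± 0.03, -0.01 ± 0.03, -0.01 ± 0.02 and -0.06 ± 0.02 (SD, n = 4 each) in the 4 groups in the order above. The labelled tissue was checked against its markers: the 11 measured luminal epithelial genes averaged 10.86 ± 0.11, 11.09 ± 0.1, 11.19 ± 0.02 and 11.01 ± 0.09 (SD, n = 4 each) in the 4 groups, with 5 of 11 lower at 20 weeks in each housing, and Epcam among them was at 13.75, 13.81, 13.31 and 13.23.

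The mammary gland is a tree of epithelial ducts set in a fat pad of adipocytes, and a sample of the whole gland mixes both with fibroblasts, vessels and immune cells. In such bulk samples fewer cells of a type and less RNA per cell cannot be told apart. Most members handle small molecules. Ces1f encodes a carboxylesterase that splits ester bonds of lipids and drugs, Acaa1b a thiolase of the last step of fatty acid oxidation in peroxisomes, Amy1 the alpha-amylase of salivary gland and liver, Akr1c14 a hydroxysteroid dehydrogenase and Inmt an enzyme that methylates indoleamines. B3galt2 encodes a galactosyltransferase that extends sugar chains. Ptger3 encodes EP3, a receptor of prostaglandin E2 that in adipocytes restrains the breakdown of stored fat. Sycp3 encodes a protein of the synaptonemal complex, which holds chromosomes together in meiosis, and Prdm8 a PR-domain zinc finger protein known from the nervous system.

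The promoters of 4 members are shown as examples that between them hold each of the 4 motifs searched on both strands. They are RefSeq sequences of GRCm38.p6, 250 bases before to 50 after the start, 5′ to 3′, with the matched motifs in capitals. In Acaa1b (chr9:119157044-119157343, minus strand) the capitals mark CCAAT or its reverse complement, 2 of whose 4 matches overlap. In Sycp3 (chr10:88459337-88459636, plus strand) they mark CACGTG 64 and 43 bases before the start, AGGTCA 213 bases before it and CCAAT 12 bases after it. In B3galt2 (chr1:143640447-143640746, plus strand) they mark CACGTG 26 bases before the start, and in Inmt (chr6:55174941-55175240, minus strand) TATAAA 80 and 69 bases before it.
Acaa1b: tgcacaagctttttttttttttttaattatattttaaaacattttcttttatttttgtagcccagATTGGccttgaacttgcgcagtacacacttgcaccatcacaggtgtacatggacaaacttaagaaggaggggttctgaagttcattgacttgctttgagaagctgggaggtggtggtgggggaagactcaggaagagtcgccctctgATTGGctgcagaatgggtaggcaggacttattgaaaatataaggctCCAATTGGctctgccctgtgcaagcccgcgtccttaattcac
Sycp3: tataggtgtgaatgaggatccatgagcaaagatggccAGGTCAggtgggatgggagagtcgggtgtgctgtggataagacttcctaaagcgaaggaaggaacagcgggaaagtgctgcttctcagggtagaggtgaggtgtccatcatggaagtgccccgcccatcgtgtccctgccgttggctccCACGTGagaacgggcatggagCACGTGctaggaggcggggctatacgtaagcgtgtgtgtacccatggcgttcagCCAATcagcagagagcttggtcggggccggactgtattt
B3galt2: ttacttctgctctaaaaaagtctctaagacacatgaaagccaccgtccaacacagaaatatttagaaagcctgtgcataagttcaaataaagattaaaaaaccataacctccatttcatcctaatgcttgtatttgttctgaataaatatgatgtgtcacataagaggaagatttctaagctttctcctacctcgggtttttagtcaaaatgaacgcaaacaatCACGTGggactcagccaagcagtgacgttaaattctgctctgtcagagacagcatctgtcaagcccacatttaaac
Inmt: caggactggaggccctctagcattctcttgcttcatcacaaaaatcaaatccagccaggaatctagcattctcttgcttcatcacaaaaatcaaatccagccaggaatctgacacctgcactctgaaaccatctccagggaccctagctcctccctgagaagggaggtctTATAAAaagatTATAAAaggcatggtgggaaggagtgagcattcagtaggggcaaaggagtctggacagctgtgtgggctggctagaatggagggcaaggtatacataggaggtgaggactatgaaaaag

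The table of promoters held 9 promoters of 8 members, 2 of them of Amy1. On both strands, CCAAT was found in 4 of these 9 promoters, against 37.4% of all 32851 promoters in the table. TATAAA was found in 2 of 9, against 13.6%, CACGTG in 2 of 9, against 7.15%, and AGGTCA in 2 of 9, against 16.3%. No motif was common to all members' promoters.

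The members lay well below their 15 week levels at 20 weeks in both kinds of housing. Over the 9 genes the median difference was -2.47 on the log2 scale in isolated mice and -1.9 in grouped mice, against -0.01 and 0 over all genes. In isolated mice 8 of 9 members lay lower by at least 1 on the log2 scale, which 2.30% of all genes did, and in grouped mice 8 of 9, which 0.896% did. All 9 were lower in each housing, as were 50.9% of all genes in isolated and 49.8% in grouped mice. These shares only restate the choice of the genes. Array values of the 2 ages did not overlap for 8 members in isolated mice and for 6 in grouped mice, where 24.9% and 18.6% of all genes were lower without overlap.

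**Figure D1:**
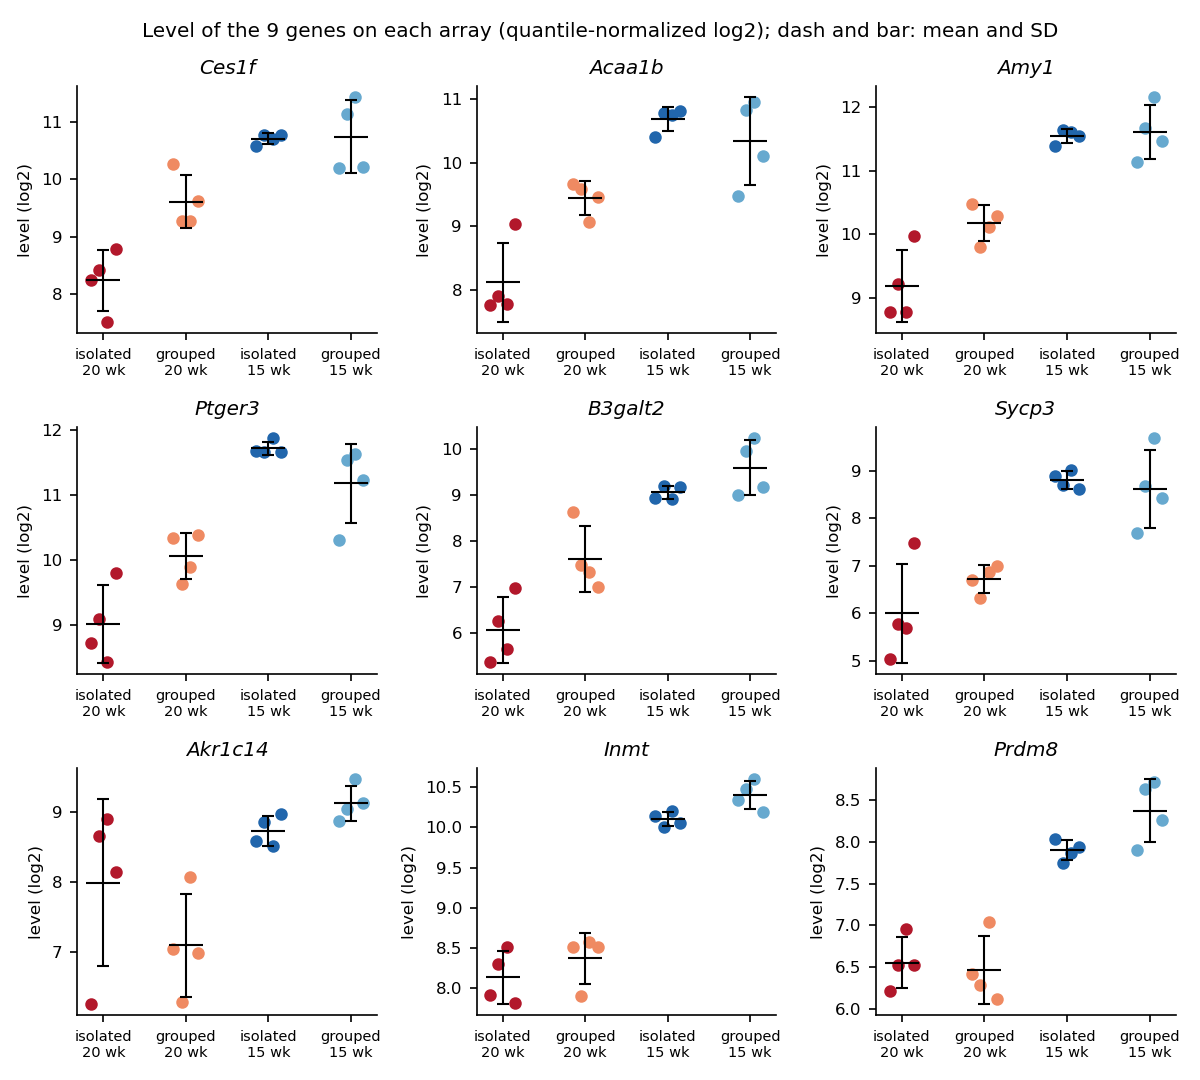
Level of each of the 9 genes on each array (log2, quantile-normalized over 16 arrays); points are arrays, the dash is the mean of 4 and the bar its SD. The 15 week groups have higher means than the 20 week groups in every gene, and 3 isolated 20 week arrays sit lowest in Acaa1b, Amy1, B3galt2 and Sycp3.

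Ces1f (8:93256236-93279766, GRCm38.p6) was at 8.24, 8.43, 7.52 and 8.78 on the isolated 20 week arrays, at 10.26, 9.28, 9.28 and 9.63 on the grouped 20 week arrays, at 10.58, 10.78, 10.7 and 10.78 on the isolated 15 week arrays and at 10.19, 11.13, 11.43 and 10.21 on the grouped 15 week arrays. All isolated 20 week arrays were below every other array, while grouped arrays of the 2 ages overlapped. The 20 minus 15 week difference was -2.47 in isolated mice, 5.54-fold lower at 20 weeks, and -1.13 in grouped mice, 2.18-fold lower. Its mean was at the 34.9th percentile of genes in isolated and the 64.2nd in grouped mice at 20 weeks, and at the 84.7th and 85.3rd at 15 weeks. Its probe set is of a kind that can also read close relatives.

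Acaa1b (9:119148043-119157093) was at 7.75, 7.89, 7.77 and 9.04 in isolated mice at 20 weeks, against 10.4, 10.79, 10.75 and 10.82 in isolated mice at 15 weeks. It was at 9.66, 9.59, 9.06 and 9.46 in grouped mice at 20 weeks, against 9.47, 10.83, 10.96 and 10.1 at 15 weeks. The differences were -2.58 in isolated and -0.9 in grouped mice, and only the isolated groups did not overlap. The overlap in grouped mice came from the first array at 15 weeks alone. On that array the B cell list was at 8.86, against 7.58 to 7.63 on the other grouped arrays at 15 weeks. The T cell list was at 9.06, against 8.17 to 8.2. Whether this had a part in the members' values was not tested. The fourth isolated array at 20 weeks was the highest of its group by over 1 on the log2 scale. A pair of probe sets shared with the related gene Acaa1a lay lower by 0.88 and 0.68 in isolated mice and by 0.59 and 0.25 in grouped mice.

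Amy1 (3:113555952-113577750) was at 8.79, 9.22, 8.78 and 9.97 in isolated mice at 20 weeks and at 10.48, 9.81, 10.12 and 10.29 in grouped mice at 20 weeks. It was at 11.39, 11.64, 11.6 and 11.54 in isolated mice at 15 weeks and at 11.13, 11.67, 12.15 and 11.46 in grouped mice at 15 weeks. Neither housing showed overlap between ages, and the differences were -2.35 in isolated and -1.42 in grouped mice. Amy1 was among the brightest members, at the 93.3rd and 93.8th percentile of genes at 15 weeks in isolated and grouped mice. A probe set shared with the gene Rnpc3 gave 0.1 in isolated and -0.12 in grouped mice. The salivary gland list, 13 genes other than Amy1, ranged only between 7.62 and 7.85 over the 16 arrays.

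Ptger3 (3:157566821-157644758) was at 8.72, 9.09, 8.42 and 9.8 in isolated mice at 20 weeks, against 11.68, 11.66, 11.87 and 11.66 at 15 weeks. The grouped mice had 10.33, 9.63, 9.89 and 10.38 at 20 weeks, against 10.3, 11.54, 11.63 and 11.23 at 15 weeks. The differences were -2.71 in isolated mice, without overlap, and -1.12 in grouped mice, with overlap through the first array at 15 weeks alone. Its other probe set gave -1.31 and -1.15, so the housings lay apart on the brighter probe set and close together on the other. That dimmer probe set was at 5.92 to 6.33 on the 20 week arrays. This is below 6.89, the lower quartile of all probe sets on an array. A B3galt2 probe set with means of 5.04 in isolated and 5.8 in grouped mice at 20 weeks still differed by -0.79 with housing. Why the 2 probe sets of Ptger3 disagree was not tested.

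B3galt2 (1:143640697-143649937) was at 5.36, 6.25, 5.65 and 6.98 in isolated mice at 20 weeks, against 8.93, 9.2, 8.91 and 9.16 at 15 weeks. In grouped mice it was at 8.63, 7.47, 7.31 and 6.99 at 20 weeks, against 9, 9.95, 10.23 and 9.17 at 15 weeks. Ages did not overlap in either housing, and the differences were -2.99 in isolated and -1.99 in grouped mice. Its level was below 6.89, the lower quartile of all probe sets on an array, on 3 of the 4 isolated 20 week arrays. Its other 2 probe sets gave -2.38 and -2.38 in isolated mice and -1.87 and -2.29 in grouped mice.

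Sycp3 (10:88459587-88473236) was at 5.04, 5.78, 5.69 and 7.49 in isolated mice at 20 weeks, against 8.89, 8.7, 9.02 and 8.61 at 15 weeks. The grouped mice had 6.7, 6.33, 6.87 and 6.99 at 20 weeks, against 7.7, 8.68, 9.69 and 8.43 at 15 weeks. The differences were -2.8 in isolated and -1.9 in grouped mice, without overlap in either. The germ cell list stayed between 6.32 and 6.55 over all arrays. On 6 of 8 arrays of 20 weeks Sycp3 was dimmer than 3 in 4 of the probe sets, whose lower quartile was 6.89.

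Akr1c14 (13:4048991-4090560) went against this order: it was at 6.27, 8.66, 8.9 and 8.14 in isolated mice at 20 weeks, against 8.58, 8.85, 8.51 and 8.96 at 15 weeks. In grouped mice it was at 7.05, 6.3, 8.07 and 6.99 at 20 weeks, against 8.86, 9.03, 9.46 and 9.12 at 15 weeks. The difference was -0.73 in isolated mice, with overlap, and -2.01 in grouped mice, without. Inmt (6:55170627-55174990) was at 7.91, 8.3, 8.51 and 7.81 in isolated mice at 20 weeks, against 10.14, 10.01, 10.21 and 10.05 at 15 weeks. In grouped mice it was at 8.51, 7.9, 8.57 and 8.51 at 20 weeks, against 10.34, 10.48, 10.6 and 10.19 at 15 weeks. Its differences were close to each other, -1.96 and -2.03, with no overlap. Prdm8 (5:98167203-98187454) was at 6.21, 6.52, 6.95 and 6.52 in isolated mice at 20 weeks, against 8.04, 7.75, 7.87 and 7.94 at 15 weeks. In grouped mice it was at 6.42, 6.28, 7.04 and 6.11 at 20 weeks, against 7.9, 8.63, 8.72 and 8.26 at 15 weeks. Its differences were -1.35 and -1.92, with no overlap in either, and it was below 6.89 on 6 of 8 arrays of 20 weeks.

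**Figure D2:**
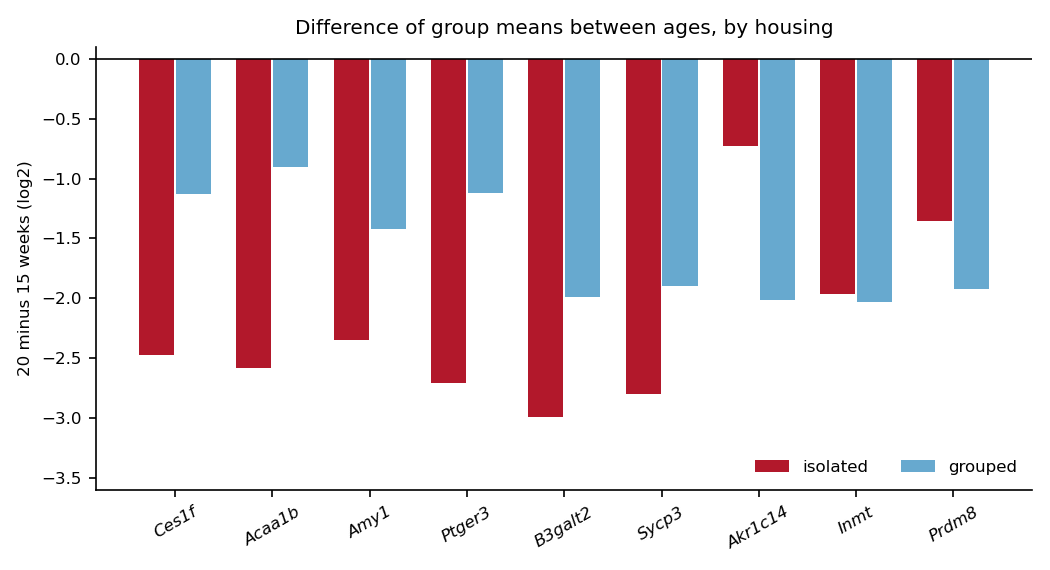
Difference between 20 and 15 weeks (log2, quantile-normalized) of each gene in isolated and grouped mice, the isolated values first. All 18 differences lie below 0, and the isolated and grouped values are farthest apart in Acaa1b and Ptger3.

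The difference of the isolated and the grouped 20 minus 15 week differences was -1.34 in Ces1f, -1.68 in Acaa1b, -0.93 in Amy1, -1.6 in Ptger3, -1 in B3galt2 and -0.9 in Sycp3. It was 1.28 in Akr1c14, 0.06 in Inmt and 0.57 in Prdm8. No test was made of these values, since the age differences chose the genes. Of all genes, 2.53% had a fall larger in isolated mice by over 0.5 on the log2 scale, and 2.15% one larger in grouped mice.

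Housing was compared within each age on the deposited values, with limma over all 18193 genes and Benjamini-Hochberg adjustment. These arrays also gave the age differences that chose the genes, so a gene taken for its low 20 week values in a single housing could differ with housing at 20 weeks for that reason, and the counts are no independent evidence. None of the 9 members passed at 20 weeks, where 0.0110% of genes did, nor at 15 weeks, where 0.0440% did, nor over both ages, where 0.00550% did. At an unadjusted p under 0.05, 5 members passed at 20 weeks, where 8.49% of genes did, 4 at 15 weeks, where 9.70% did, and 5 over both ages, where 6.83% did. Over the members the median isolated minus grouped difference was -0.99 at 20 weeks, -0.15 at 15 weeks and -0.3 over both ages, against -0.01 over all genes in each. The difference was negative for 7 of 9 members at 20 weeks, against 53.3% of all genes, for 6 at 15 weeks, against 54.0%, and for 8 over both ages, against 56.9%.

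At 20 weeks Ces1f averaged 8.36 ± 0.53 in isolated mice and 9.74 ± 0.46 in grouped mice (SD, n = 4 each), a difference of -1.38 (SE 0.29, 95% interval -2.03 to -0.74, limma adjusted p = 0.422). Acaa1b averaged 8.24 ± 0.63 in isolated mice and 9.57 ± 0.27 in grouped mice, a difference of -1.34 (SE 0.28, interval -1.97 to -0.7, limma adjusted p = 0.422). B3galt2 averaged 6.17 ± 0.7 in isolated and 7.72 ± 0.71 in grouped mice, a difference of -1.55 (SE 0.4, interval -2.45 to -0.64, limma adjusted p = 0.465). In these 3 genes the isolated and grouped arrays did not overlap, though in Acaa1b the nearest arrays were at 9.18 in isolated and 9.19 in grouped mice. Separation without overlap was seen in 4.20% of all genes, in either direction. Amy1 differed by -0.99 (SE 0.27, adjusted p = 0.465) and Ptger3 by -1.05 (SE 0.29, adjusted p = 0.487), with overlap. The dimmer probe set of Ptger3, below the lower quartile of probe sets on every array of 20 weeks, differed by 0.01 (SE 0.1). Those of B3galt2 differed by -1.07 (SE 0.34) and -0.79 (SE 0.24). Sycp3 differed by -0.75 (SE 0.43, adjusted p = 0.646), Inmt by -0.25 (SE 0.19, adjusted p = 0.708) and Prdm8 by 0.07 (SE 0.21, adjusted p = 0.928). Akr1c14 was the only member besides Prdm8 with a higher mean in isolated mice, by 0.88 (SE 0.56, interval -0.39 to 2.14, adjusted p = 0.667).

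A single array moved these calls. Without the fourth isolated array at 20 weeks, 4 members passed, all lower in isolated mice: Acaa1b at -1.65 (limma adjusted p = 0.00553), Amy1 at -1.27 (adjusted p = 0.0197), Ptger3 at -1.33 (adjusted p = 0.0355) and Sycp3 at -1.24 (adjusted p = 0.0464). Then 136 genes passed in all, 126 of them lower in isolated mice, against 2 with every array. Over both ages Amy1 at -0.71 and B3galt2 at -1.2 passed without it (limma adjusted p = 0.0457 and 0.0485). There 50 genes passed in all, 43 of them lower in isolated mice, against 1 with every array. On this array the white adipocyte list was at 12.28, against 10.95, 11.56 and 11.43 on the other isolated arrays. Nothing in the labels sets this array apart. Leaving out any other array of 20 weeks left 0 members called.

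**Figure D3:**
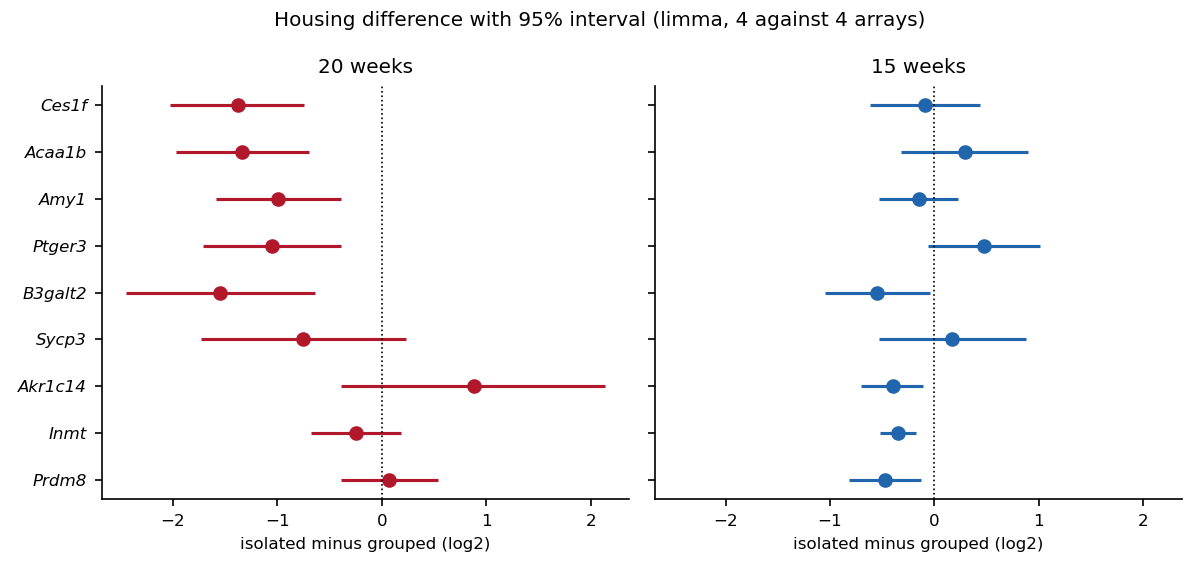
Isolated minus grouped difference (log2, deposited values) of each gene at 20 weeks (left) and at 15 weeks (right), with 95% intervals from limma, 4 arrays against 4. At 20 weeks 5 of the 9 intervals lie below 0, but no adjusted p passed 0.05.

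At 15 weeks the differences lay between -0.55 and 0.47, with 6 of 9 negative. Inmt averaged 9.94 ± 0.08 in isolated mice and 10.29 ± 0.13 in grouped mice, a difference of -0.35 (SE 0.08, interval -0.52 to -0.18, limma adjusted p = 0.233), without overlap, which 5.69% of all genes showed in either direction. Akr1c14 differed by -0.4 (SE 0.13, adjusted p = 0.404), Prdm8 by -0.47 (SE 0.15, adjusted p = 0.393) and B3galt2 by -0.55 (SE 0.23, adjusted p = 0.485). The intervals of these 4 lay below 0. Ces1f (-0.09), Acaa1b (0.29), Amy1 (-0.15), Ptger3 (0.47) and Sycp3 (0.17) had intervals that held 0. Over both ages B3galt2 had the largest difference, -1.05 (SE 0.25, interval -1.58 to -0.51, limma adjusted p = 0.407).

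Relatives of the members differed by family at 20 weeks, where 50.9% of all genes lay lower in isolated and 49.8% in grouped mice. Of 12 other carboxylesterases 5 lay lower at 20 weeks in each housing, with medians of 0.04 and 0.04. Among them was Ces1d, a triglyceride hydrolase, at -2 in isolated and -0.75 in grouped mice. Of 17 other genes of peroxisomal fatty acid oxidation, 16 were lower in each housing, with medians of -0.64 and -0.32, among them the fatty acid transporter Abcd2 (-1.8 and -1.18), the bifunctional enzyme Ehhadh (-1.23 and -1.32) and the branched-chain fatty acid hydroxylase Phyh (-1.36 and -0.76). Of 17 other prostaglandin genes, 9 lay lower in isolated and 10 in grouped mice. The prostaglandin E synthase Ptges was at -1.44 and -0.85, while the cyclooxygenase Ptgs2 lay higher by 1.24 and 1.33. The 14 other glycosyltransferases had 7 lower in each housing and medians of 0 and -0.04. Of 16 other synaptonemal complex and meiosis genes, 7 and 6 were lower, and Sycp1, a partner of Sycp3 in the complex, lay higher by 0.48 and 0.31. Of 14 other aldo-keto reductases 5 and 7 were lower, of 8 other small-molecule methyltransferases 8 and 7 (medians of -0.25 and -0.15), and of 11 other PRDM genes 6 and 7. In the housing comparisons, limma called 0 of these relatives.

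Markers of adipocytes, like the members, lay lower at 20 weeks, with a larger median difference in isolated mice. Akr1c14 (-0.73 in isolated and -2.01 in grouped mice), Inmt (-1.96 and -2.03) and Prdm8 (-1.35 and -1.92) did not share that housing order. All 17 measured white adipocyte genes were lower at 20 weeks in both housings, with medians of -1.58 in isolated and -0.72 in grouped mice. Their mean level per array was 10.95, 11.56, 11.43 and 12.28 in isolated mice at 20 weeks, 12.31, 12.13, 12.27 and 12.25 in grouped mice at 20 weeks, 12.91, 12.99, 13.03 and 12.97 in isolated mice at 15 weeks and 12.73, 12.93, 13.24 and 12.82 in grouped mice at 15 weeks. The isolated 20 week arrays were lowest but for the fourth, which was next to the grouped arrays. At 20 weeks 17 of 17 markers were lower in isolated than in grouped mice, with a median of -0.75 and 0 called by limma. In isolated mice 6 members lay lower than every marker of the list, whose lowest was -2.19, and in grouped mice 6 lay lower than its lowest, -1.36. Since the members were chosen for large falls, these counts only restate that choice. The part of adipocyte content in the members' values was not tested.

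**Figure D4:**
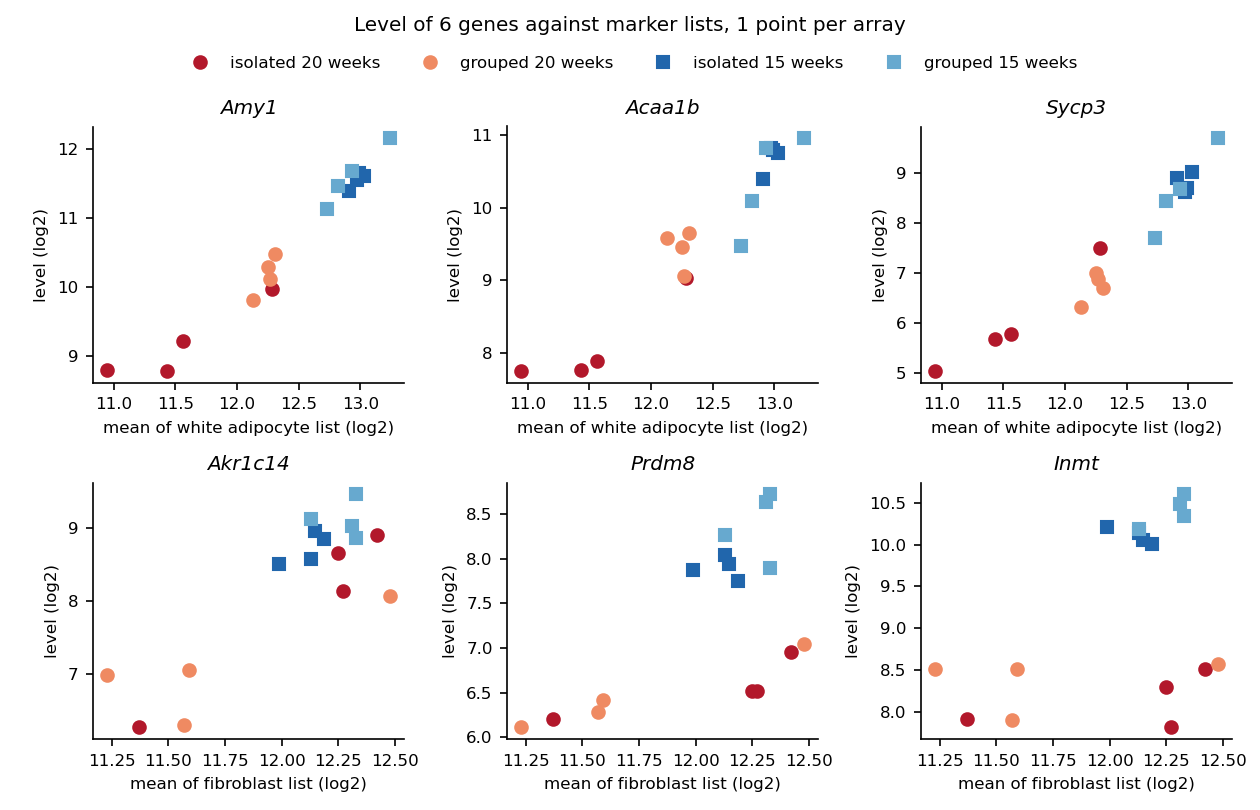
Level of Amy1, Acaa1b and Sycp3 against the mean of the white adipocyte list, and of Akr1c14, Prdm8 and Inmt against the mean of the fibroblast list (both axes log2, quantile-normalized), with a point for each of the 16 arrays. The upper 3 genes are lowest on the 3 isolated 20 week arrays with an adipocyte mean of 10.95 to 11.56, and at 20 weeks Akr1c14 and Prdm8 are lowest on the 4 arrays with a fibroblast mean of 11.23 to 11.59.

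The 7 brown adipocyte genes, of which Cidea is also in the white list, had medians of -1.52 in isolated mice (6 of 7 lower at 20 weeks) and -0.95 in grouped mice (7 of 7 lower). Their mean level was 10.31 ± 1.14, 10.75 ± 0.41, 11.76 ± 0.05 and 11.69 ± 0.18 (SD, n = 4 each) in the 4 groups in the order above. At 20 weeks 6 of 7 were lower in isolated than in grouped mice, with a median of -0.5 and 0 called by limma. Fibroblast markers were at 11.37, 12.25, 12.42 and 12.27 in isolated mice at 20 weeks, 11.59, 11.57, 12.48 and 11.23 in grouped mice at 20 weeks, 12.13, 12.19, 11.99 and 12.15 in isolated mice at 15 weeks and 12.33, 12.31, 12.33 and 12.13 in grouped mice at 15 weeks. At 20 weeks the 4 arrays lowest in these markers were also the 4 lowest in Akr1c14 and in Prdm8. The macrophage list was lowest on the same 4 arrays, at 10.3 to 10.91, against 11.42 to 11.85 on the other arrays of 20 weeks. Its median 20 minus 15 week difference was 0.4 in isolated and -0.55 in grouped mice. The order of the arrays is thus not particular to fibroblast markers. Skeletal muscle markers averaged 13 ± 0.36, 13.55 ± 0.34, 13.73 ± 0.15 and 13.47 ± 0.18 (SD, n = 4 each) in the 4 groups in the order above. These were the highest means of any marker list, so the samples held muscle too. At 20 weeks 10 of 10 muscle markers were lower in isolated than in grouped mice, with a median of -0.57 and 0 called by limma. Cell cycle genes averaged 11.46 and 11.45 in isolated and grouped mice at 20 weeks, against 10.87 and 10.83 at 15 weeks. The 9 hepatocyte genes averaged 8.42, 8.62, 8.76 and 8.77 in the 4 groups. Their median 20 minus 15 week difference was -0.16 in isolated and -0.1 in grouped mice, with Cyp2e1 among them at -2.09 and -0.88. Whether any of these lists had a part in the members' values was not tested.

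The members did not all vary together within groups. After the mean of each group was subtracted, the 8 arrays of 20 weeks gave correlations of 0.46 to 0.96 among Ces1f, Acaa1b, Amy1, Ptger3, B3galt2 and Sycp3 (15 pairs) and of 0.54 to 0.79 among Akr1c14, Inmt and Prdm8 (3 pairs). Across these 2 sets the 18 pairs gave -0.53 to 0.41. At 15 weeks the same 18 pairs gave 0.5 to 0.9, so there the sets did not stand apart. Over the 15 arrays of both ages other than the fourth isolated one of 20 weeks, they gave -0.07 to 0.65. The sets were formed after the values were seen, the arrays are shared by all genes, and these correlations are a description.

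**Figure D5:**
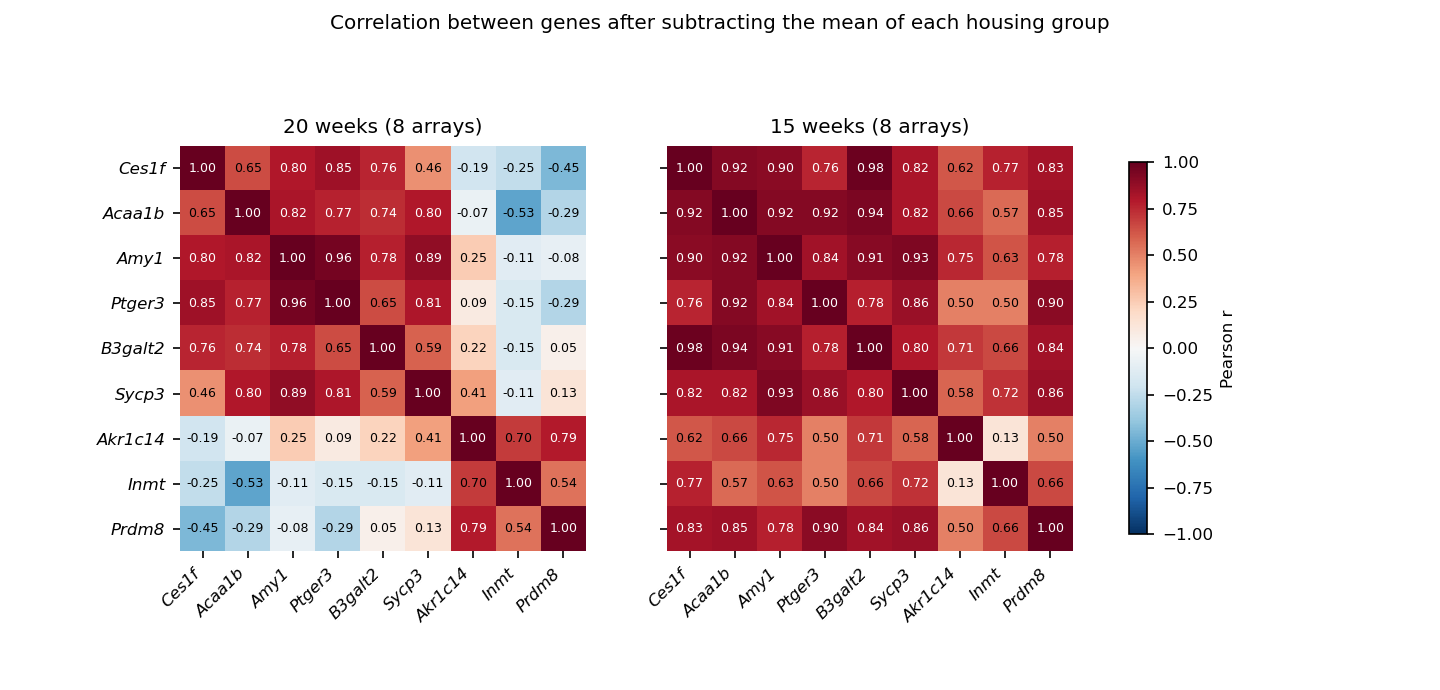
Pearson correlation between genes over the 8 arrays of 20 weeks and the 8 of 15 weeks, after the mean of each housing group was subtracted. At 20 weeks Akr1c14, Inmt and Prdm8 vary apart from the other 6 genes, and at 15 weeks all pairs are positive.

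At 15 weeks the levels of 4 members, Ces1f, Acaa1b, Amy1 and Sycp3, were correlated with the adipocyte list over the 8 arrays, with an adjusted p under 0.05 over 36 relations, and those of the other 5 were not. The permutations mixed the 8 arrays without regard to housing. They used the levels whose age differences chose the genes, so each p is no independent evidence. Sycp3 gave r = 0.95 (exact permutation p = 0.0026, adjusted p = 0.0156 over 36 relations) and rho = 0.83 (exact permutation p = 0.0154) over 8 arrays, with r = 0.69 without the 2 arrays farthest from the list's median and r = 0.94 within housing groups. Amy1 gave r = 0.94 (exact permutation p = 0.00228, adjusted p = 0.0156) and rho = 0.81 (exact permutation p = 0.0218), with r = 0.59 without those 2 and 0.98 within housing groups. Acaa1b gave r = 0.84 (exact permutation p = 0.00853, adjusted p = 0.0307) and rho = 0.76 (exact permutation p = 0.0368), with r = 0.85 without those 2 and 0.85 within housing groups. Ces1f gave r = 0.88 (exact permutation p = 0.00503, adjusted p = 0.0249) and rho = 0.79 (exact permutation p = 0.0279), with r = 0.6 without those 2 and 0.89 within housing groups. Of the other 5, Ptger3 gave r = 0.7 (0.77 within housing groups), B3galt2 0.61 (0.87), Akr1c14 0.38 (0.69), Inmt 0.34 (0.73) and Prdm8 0.42 (0.75). Within housing groups of 15 weeks every member was thus positively correlated with the list when all 8 arrays were kept. Without those 2 arrays r across housings was 0.91 for Ptger3, but -0.14 for B3galt2, -0.58 for Akr1c14, -0.19 for Inmt and -0.55 for Prdm8. No rank correlation with this list passed adjustment, the smallest adjusted p being 0.11. The 36 relations covered this list and the fibroblast list at both ages. At 20 weeks this list fell into separate groups of arrays, so its r there is given without a p. It was 0.78 to 0.94 for Ces1f, Acaa1b, Amy1, Ptger3, B3galt2 and Sycp3, and -0.02 for Akr1c14, 0.21 for Inmt and 0.04 for Prdm8. With the fibroblast list no relation passed adjustment at 15 weeks. At 20 weeks the fibroblast list also fell into separate groups of arrays, at 11.23 to 11.59 and at 12.25 to 12.48. Its r there is likewise given without a p. It was 0.9 for Prdm8 (rho = 0.98) and 0.88 for Akr1c14 (rho = 0.76), and -0.46 to 0.18 for the other members.

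Genes whose levels followed each member most closely over the 16 arrays, after the group means were subtracted, were the amino acid transporter Slc7a10 for Ces1f (r = 0.92), Nabp1 and the glycerolipid acyltransferase Gpat3 for Acaa1b (0.94 each), the G protein subunit Gnai1 for Amy1 (0.97), the pyruvate carboxylase gene Pcx for Ptger3 (0.95) and Glb1l2 for B3galt2 (0.93). For Sycp3 they were the glycogen branching enzyme Gbe1 and the tyrosine catabolism enzyme Fah (0.98 each). For Akr1c14 they were Irak3 and Rgl1 (0.96 each), for Inmt Arsg (0.92) and for Prdm8 Ism1 (0.94). Each r is the highest among 18193 genes and is given without a p.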

How the data were processed

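Expression of whole mammary gland RNA was measured on 16 Affymetrix arrays, 4 per group. The deposited values are log2 levels that the authors made with RMA in affy, per the submitters' processing notes, with no version. RMA subtracts background, gives arrays a common distribution and summarises each probe set. Precision is limited by the number of arrays, as arrays have no read depth. Gene names came from GEO's platform annotation (34945 with 1 symbol, 932 with several, 9160 unlisted, 64 controls), with 34741 matched to RefSeq GRCm38.p6. Each of 18193 genes was read from its brightest probe set with 1 symbol. For age differences all arrays were quantile-normalized. Housing differences came from limma 3.58.1 under R 4.3.3 on the deposited values (linear models with eBayes and an intensity trend), at an adjusted p of 0.05 over all genes. The fits were tested on simulated data. Members, gene lists and named genes (the members, the most extreme relatives in each family list, marker means and the genes most correlated with each member) were chosen with earlier results of these data known. Alternatives covered normalization, filters on dim genes, probe sets, variance priors, array weights, RNA quality covariates, a replicate block and leaving out each array.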

Additional observations from a re-analysis of the deposited data

Results flagged for a closer look

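Of 36 groups of 4 arrays (9 genes in 4 groups), 4 held an array far from the other 3, by a gap, as a share of the group's range, above Dixon's 95% critical value. Chance marks about 1 in 20 groups. Acaa1b was at 9.04 on the fourth isolated array at 20 weeks, against 7.75 to 7.89 on the others, and this array also decided whether 4 members passed the housing test at 20 weeks. Acaa1b was at 10.4 on the first isolated array at 15 weeks, against 10.75 to 10.82. Ptger3 was at 11.87 on the third isolated array at 15 weeks, against 11.66 to 11.68. Inmt was at 7.9 on the second grouped array at 20 weeks, against 8.51 to 8.57. All values are quantile-normalized log2 levels.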

How the results depend on the processing

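No member passed the housing test in the unweighted fits that kept every array. Leaving out 1 array at a time gave 0 to 4 members past the threshold at 20 weeks, 0 to 0 at 15 weeks and 0 to 2 over both ages, the upper ends without the fourth isolated array at 20 weeks. Without that array 136 genes passed in all at 20 weeks and 50 over both ages. Array weights gave 3 members at 15 weeks (B3galt2 at -0.73, Inmt at -0.38 and Prdm8 at -0.64, limma adjusted p = 0.0419, 0.0218 and 0.0273) and 2 over both ages (Ces1f at -0.82 and B3galt2 at -1.14, limma adjusted p = 0.0364 and 0.0225). With them 494 genes passed at 15 weeks and 137 over both ages, against 8 and 1 in the fit as reported. The cause was not tested. The replicate block gave 0 members in each comparison, with 3, 17 and 3 genes past the threshold at 20 weeks, at 15 weeks and over both ages. Same-numbered arrays did not deviate together consistently: 9 of 24 correlations between them exceeded 0.1 (range -0.3 to 0.49). Filters on dim genes left 4, 8 and 5 members at the 40th percentile and 2, 6 and 5 at the median, with 0 called.

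Small housing differences changed sign. At 15 weeks Ces1f turned to 0.14 and Amy1 to 0.01 with the Gapdh covariate, and Sycp3 to -0.03 with the actin covariate. Leaving out 1 array gave -0.28 to 0.13 for Ces1f, 0 to 0.49 for Acaa1b, -0.32 to 0.01 for Amy1 and -0.13 to 0.52 for Sycp3 at 15 weeks, and -0.07 to 0.26 for Prdm8 at 20 weeks. The isolated minus grouped value of the age differences of Inmt ran between -0.09 and 0.17. The median age difference in isolated mice was -2.19 on the values as deposited, and -2.65 to -2.23 when arrays were left out. In grouped mice it was -2.05 to -1.55 when arrays were left out. The mean of all probe sets gave -2.01 for Ptger3 in isolated mice.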
